A study of Mus musculus with 12 samples.

Results

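Later B cells of the perinatal mouse liver were defined here as barcodes with both chains of the B cell receptor signalling module and no transcript of the surrogate light chain. A barcode was a member when it held at least 2 UMIs (unique molecular identifiers, each a counted transcript) of Cd79a, at least 1 of Cd79b, and 0 of Vpreb1 and Igll1. Barcodes needed at least 1000 UMIs in all and at most 15% of them on mitochondrial genes. The rule found 12120 later B cells among 184493 passing barcodes. A further 10284 barcodes met the Cd79a and Cd79b conditions but held surrogate light chain UMIs, and these served as the nearest population. The members were chosen by the measured values of those 4 genes, so their values, the shares of barcodes that met the rule, and the levels of one B-cell set against the other are given as a description with no test. Tests were kept for other genes, compared between stages or genotypes over libraries.

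B cells arise in the fetal liver before the bone marrow takes over. A pro-B cell first rearranges its heavy chain locus with the Rag recombinase, and the new heavy chain is tested together with a surrogate light chain made of Vpreb and Igll1 proteins. A cell that passes this checkpoint divides, switches the surrogate chain off, rearranges a kappa or lambda light chain, and becomes an immature B cell with surface IgM. Later steps add IgD, CD20 (the product of Ms4a1), MHC class II molecules and receptors for survival signals.

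Livers were taken from mice at 2 ages, the fetal stage E16.5 and P3, 3 days after birth, and were profiled by droplet single-cell RNA sequencing after magnetic removal of dead cells. All animals were offspring of Jag1Ndr/+ parents and carried no copy (Jag1+/+), 1 copy (Jag1Ndr/+) or 2 copies (Jag1Ndr/Ndr) of the Nodder missense allele of Jag1, a ligand of Notch receptors, in every cell. Per the labels' protocols, Jag1Ndr/Ndr pups at P3 were recognised by jaundice, and the enzyme mix for E16.5 livers contained TrypLE, which that for P3 livers lacked. The 12 deposited matrices held 9 separate libraries, 5 at E16.5 and 4 at P3, because several matrices contained the same barcodes.

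E16.5 values below follow 1 order. Jag1+/+ replicate 1 comes first. It is followed by a library deposited identically under Jag1+/+ replicate 2 and Jag1Ndr/+ replicate 2, which is called the shared library. After it stand Jag1Ndr/+ replicate 1 and, last, both Jag1Ndr/Ndr replicates. At P3, library A carried the label Jag1+/+ replicate 1 and its barcodes also appeared under both Jag1Ndr/Ndr labels. Library B was labelled Jag1+/+ replicate 2, and its barcodes recurred under the second replicates of both other genotypes. The first Jag1Ndr/Ndr replicate, once the barcodes of library A had been removed, gave library C. Library D was the first Jag1Ndr/+ replicate. The genotypes of libraries A and B are therefore unclear, and P3 values follow the order A to D. Apart from A and C, the 35 pairs of these 9 libraries shared 0.475% to 1.54% of the smaller one's barcodes.

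Stage could not be told apart from several other differences. The P3 and E16.5 matrices were written by versions 3.0.2 and 3.1.0 of the 10x Genomics software and listed 22597 and 31053 genes, of which the 22519 on both lists were compared. Ddx3y, a Y-linked gene, was present in later B cells of all 4 P3 libraries and of 3 E16.5 libraries, whereas Jag1Ndr/+ replicate 1 and Jag1Ndr/Ndr replicate 2 held 0 UMIs of it. The series' design text counts 2 individuals per genotype and stage, but with the repeated barcodes it is not clear which animal each library came from, so p-values measure the spread between these libraries.

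Later B cells were rare at E16.5 and common at P3. They numbered 176, 63, 153, 250 and 73 at E16.5, or 0.930%, 0.306%, 0.527%, 1.36% and 0.276% of passing barcodes. At P3 they numbered 3822, 3490, 1530 and 2563, or 17.8%, 19.9%, 10.2% and 15.04%. Every P3 library lay above every E16.5 library. The means were 0.680% ± 0.462 (SD, n = 5) at E16.5 and 15.7% ± 4.19 (SD, n = 4) at P3, a difference of 15.04 percentage points. Applying the gate after every barcode had been reduced to 1000 random UMIs lowered the difference to 8.10 points. Leaving out barcodes with an excess of other cells' transcripts, which also shrank the denominator, raised it to 33.3 points.

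The balance between the 2 B-cell sets turned over between the stages. Later B cells made up 9.93%, 3.95%, 7.01%, 13.5% and 5.41% of the barcodes of both sets at E16.5, and 81.4%, 87.9%, 71.0% and 90.4% at P3. Most B-lineage barcodes thus held surrogate light chain transcripts at E16.5 and most lacked them at P3, in every library. The means were 7.97% ± 3.82 (SD, n = 5) and 82.7% ± 8.65 (SD, n = 4), a difference of 74.7 points. Counting error alone was small, as the exact binomial 95% intervals ran from 3.05% to 5.03% in the shared library and from 89.2% to 91.4% in library D, the libraries with the lowest and highest shares.

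**Figure D1:**
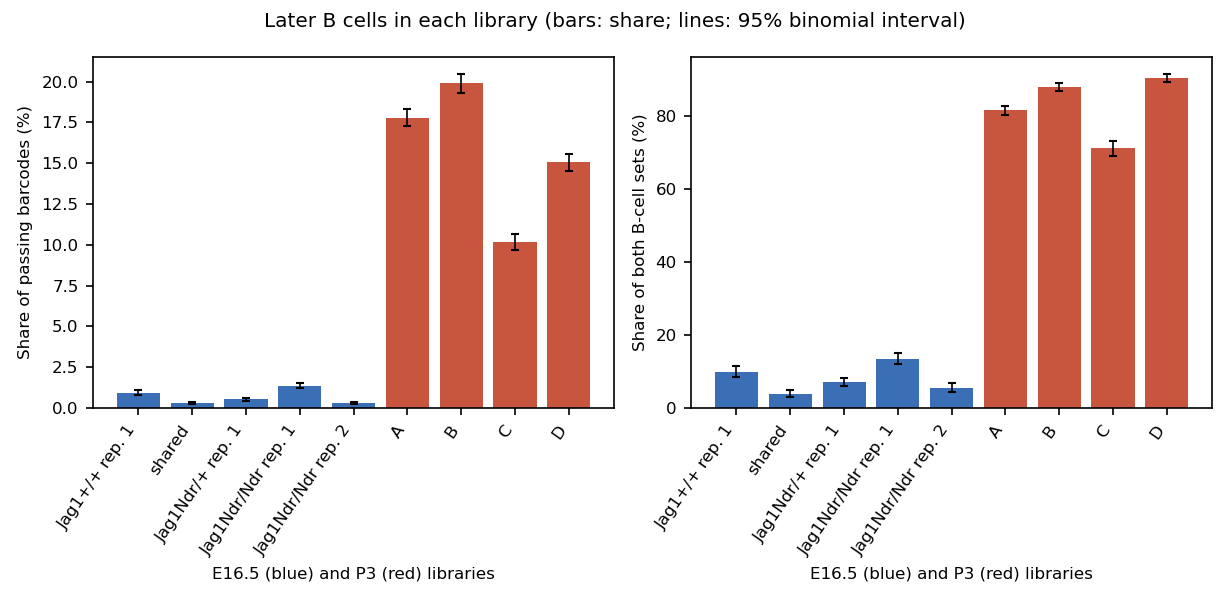
Later B cells in each library as a percentage of passing barcodes (left) and of the barcodes of both B-cell sets (right). Bars are shares, lines are exact binomial 95% intervals, E16.5 is blue and P3 red. All 4 P3 bars exceed all 5 E16.5 bars, from 10.2% to 19.9% against 0.276% to 1.36% of passing barcodes.

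Depth differed between stages and sets. The median later B cell held 5732.5, 5537, 6080, 6522 and 6411 UMIs at E16.5 and 4237.5, 3071.5, 4903 and 2467 at P3. Summed over later B cells, the libraries gave 489059 to 2269149 UMIs at E16.5 and 9205028 to 25808676 at P3, so P3 levels are the more precise. Of the members, 902 sat at the limit of exactly 2 Cd79a UMIs and 618 at exactly 1 Cd79b UMI. Just outside lay 1357 barcodes with 1 Cd79a UMI, 427 with 0 Cd79b UMIs and 795 with 1 surrogate light chain UMI. The last kind numbered 38, 31, 61, 56 and 25 at E16.5, beside 176, 63, 153, 250 and 73 members. At P3 it numbered 232, 138, 141 and 73, beside 3822, 3490, 1530 and 2563 members. Relative to the members this edge was thus larger at E16.5. The part in E16.5 levels of cells whose surrogate light chain UMIs went undetected was not tested. Shares of cells with a given transcript are stated after reducing each cell to 1000 UMIs, a step that removed no cell, with the unreduced share where it matters. The median mitochondrial share of later B cells was 5.11%, 5.16%, 3.78%, 5.04% and 3.83% at E16.5 and 8.79%, 7.83%, 4.67% and 6.15% at P3. A limit of 10% would keep 2264 of 3822 members in library A, 2519 of 3490 in B, 1480 of 1530 in C and 2218 of 2563 in D. The part of this difference in the values of single libraries was not tested. No doublet caller was run.

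By Ighm and light chain transcripts, the label held at P3 and only in part at E16.5. Ighm, the heavy chain of IgM, was detected in 92.1% to 100% of unreduced later B cells at E16.5 and in 99.5% to 99.9% at P3. A UMI of Ms4a1 was found in 11.0% to 22.7% of unreduced E16.5 cells and in 41.2% to 56.6% at P3. No light chain constant gene was detected in 15 of 176, 20 of 63, 26 of 153, 13 of 250 and 18 of 73 E16.5 cells, so a part of the E16.5 members had shown neither the surrogate nor the mature light chain. At P3 such cells numbered 65 of 3822, 64 of 3490, 16 of 1530 and 59 of 2563.

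Light chain transcripts separated the stages. After reduction to equal depth, 61.9%, 30.2%, 51.6%, 67.6% and 47.9% of E16.5 later B cells and 84.4%, 89.0%, 82.5% and 88.0% of P3 later B cells held a UMI of Igkc, Iglc1, Iglc2 or Iglc3. The stages did not overlap, with means of 51.9% ± 14.5 (SD, n = 5) and 86.0% ± 3.05 (SD, n = 4) and an exact permutation p of 0.0159 (two-sided, adjusted p = 0.0254 over 8 shares), the smallest that 5 against 4 libraries can give. The same transcripts appeared in 0.133% to 0.400% of barcodes without Cd79a and Cd79b at E16.5 and in 2.57% to 3.97% at P3, which is the background for these shares. Without the reduction the stage difference was 15.7 points in place of 34.1.

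Heavy chain transcripts moved the same way. Ighm was found in 85.8%, 61.9%, 55.6%, 82.4% and 57.5% of depth-matched cells at E16.5 and in 85.9%, 90.3%, 86.8% and 90.0% at P3. The lowest P3 library exceeded the highest E16.5 library by little, and 3 E16.5 libraries lay far below. Ighd, the heavy chain of IgD, was found in 2.27%, 3.17%, 0%, 2.00% and 1.37% at E16.5 and in 6.28%, 7.79%, 5.36% and 10.6% at P3. The 0% came from 153 cells and allows up to 1.96% of cells with an Ighd UMI at that reduced depth, which does not limit the cells that express it. At full depth 11.1% to 23.8% of E16.5 cells and 20.4% to 22.9% of P3 cells held an Ighd UMI. Both differences had an exact permutation p of 0.0159 (two-sided, adjusted p = 0.0254), but at full depth they shrank to 3.21 and 4.12 points with p of 0.190 and 0.175.

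Ms4a1, which encodes CD20 of the B cell surface, was found in 8.52%, 4.76%, 5.88%, 8.40% and 8.22% of depth-matched E16.5 cells and in 27.6%, 33.7%, 22.4% and 42.2% of P3 cells. No P3 library overlapped an E16.5 library (exact permutation p = 0.0159, two-sided, adjusted p = 0.0254, with 24.3 points between the means). In barcodes without Cd79a and Cd79b the share was at most 0.0333% at E16.5 and 0.300% at P3. A UMI of Rag1 or Rag2, the recombinase subunits, was found in 15.3%, 17.5%, 7.84%, 19.6% and 13.7% at E16.5 and in 11.1%, 12.9%, 7.39% and 9.05% at P3. Those ranges overlapped, and the difference of -4.68 points missed the threshold (exact permutation p = 0.111, two-sided, adjusted p = 0.148). It reached -31.7 points at full depth, with 41.2% to 64.8% at E16.5 against 17.4% to 30.4% at P3, and -6.42 points (exact permutation p = 0.0286) without E16.5 Jag1Ndr/+ replicate 1. Dntt, the enzyme that adds random bases at heavy chain joints, was all but undetected in later B cells, with 0% at E16.5 and 0% to 0.0390% at P3. At full depth the shares with a Dntt UMI were 0% to 0.4% and 0.0573% to 0.261%. At the reduced depth a count of 0 allowed 1.20% to 4.76% of cells with a Dntt UMI in the E16.5 libraries, which does not limit the cells that express it.

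**Figure D2:**
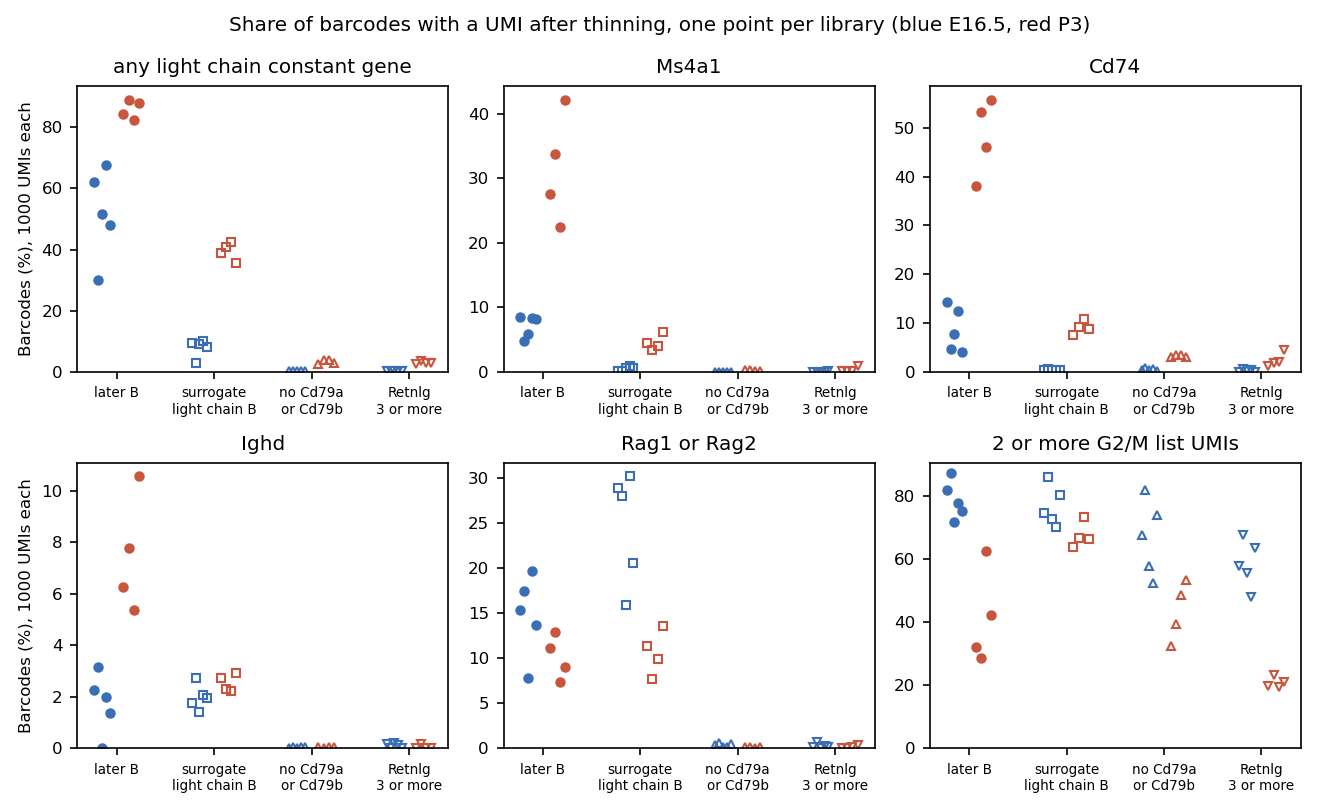
Percentage of barcodes with a UMI of the named genes after reduction to 1000 UMIs, 1 point per library, for later B cells, B cells with surrogate light chain, barcodes without Cd79a and Cd79b, and barcodes with at least 3 Retnlg UMIs (mature neutrophils). Light chain, Ms4a1, Cd74 and Ighd points of later B cells lie higher at P3 than at E16.5, while Rag1 or Rag2 points overlap.

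The ratio of the light chain classes did not separate the stages. Lambda chains (Iglc1, Iglc2 and Iglc3) supplied 24.1%, 14.4%, 30.8%, 24.7% and 28.3% of light chain UMIs at E16.5 and 24.7%, 23.2%, 19.4% and 21.7% at P3. The difference of -2.21 points was within the spread (exact permutation p = 0.524, two-sided, adjusted p = 0.599). It ranged from -0.62 points without E16.5 Jag1Ndr/+ replicate 1 to -4.72 (p = 0.0857) without the shared library, was -1.26 and -1.27 without E16.5 Jag1Ndr/Ndr replicate 2 and library C, and was -4.43 (p = 0.333) with a stricter Cd79a and Cd79b gate and -7.78 (p = 0.111) with the gate applied after reduction to 1000 UMIs, all by the exact permutation test. Cells were also called kappa or lambda when they held at least 5 UMIs of one class and at least 5 times more of it than of the other. By this count 7, 1, 11, 15 and 7 E16.5 cells and 183, 129, 49 and 80 P3 cells were lambda cells. They were 6.67% to 21.2% of called cells at E16.5 and 5.65% to 9.20% at P3, in each library below its share of lambda UMIs. Another 31, 4, 17, 35 and 1 cells at E16.5 and 1215, 1108, 398 and 816 at P3 held at least 5 UMIs of a class without that excess and were called neither, so these percentages cover only a part of the cells with light chain.

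Expression levels were compared on UMI counts summed over the later B cells of each library, as CPM (the count scaled to a fixed total per library) after scaling by the TMM method. In such sums, fewer cells with a transcript and less of it per cell cannot be told apart. Of 9324 genes tested between P3 and E16.5, 3513 (37.7%) were called at an adjusted p under 0.05 in edgeR's quasi-likelihood test, 1674 higher (18.0%) and 1839 lower (19.7%) at P3. The 2 stages did not overlap for 30.0% of tested genes. The median log2 fold change of all tested genes was 0.02. Many of these genes shifted elsewhere too, as 1645 of the called genes moved over 2-fold in the same direction in barcodes without Cd79a and Cd79b. In 473 called genes the level in later B cells was at least 2 times that of those barcodes in every library of the higher stage, 240 of them higher and 233 lower at P3. Log2 fold changes below are P3 over E16.5 from this fit, with standard errors. Levels of single genes in barcodes without Cd79a and Cd79b are plain CPM without TMM scaling, summed over all such barcodes.

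Genes of the B cell receptor and its signalling chain were higher at P3 or not called. Of 21 listed and tested, 13 rose and 0 fell, beside rises in 18.0% of all genes. The median log2 fold change was 0.64. Igkc, the kappa constant region (chromosome 6, 70726435 to 70726966, plus strand, GRCm38), measured 1451, 339, 1229, 1674 and 648 CPM at E16.5 and 3589.9, 4315, 3183 and 3403 CPM at P3. Every P3 library was above every E16.5 library, and the shared library was lowest. Its log2 fold change was 1.72 (SE 0.34, edgeR's quasi-likelihood test, Benjamini-Hochberg adjusted p = 0.00172). Iglc1, a lambda constant gene (chromosome 16, 19061618 to 19062071, minus strand), measured 281, 27.6, 374, 331 and 177 CPM at E16.5 and 766, 1044, 572 and 762 CPM at P3, again without overlap, with a log2 fold change of 1.67 (SE 0.44). Iglc2, whose sequence is close to that of Iglc3 so that reads may be split between them, stood at 6.55, 0, 42.8, 3.74 and 1.81 CPM at E16.5 and rose to 136, 88.8, 59.3 and 62.8 CPM. Iglc3 itself, at 125 ± 73.6 CPM (SD, n = 5) and 174 ± 68.9 CPM (SD, n = 4), was not called (adjusted p = 0.435, edgeR).

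Ighm (chromosome 12, 113418558 to 113422730, minus strand) measured 2226, 1078, 1221, 1929 and 1396 CPM at E16.5 and 2124, 2452, 2452 and 2500.0 CPM at P3. E16.5 Jag1+/+ replicate 1 lay within the P3 range and the other 4 E16.5 libraries below it. The log2 fold change of 0.56 (SE 0.20, edgeR adjusted p = 0.0439) was lost in 9 alternatives, among them the omission of any of 6 single libraries. Among the inhibitory partners of the receptor, Cd22, a sialic acid-binding co-receptor, went from 12.3, 11.0, 5.79, 6.95 and 9.05 CPM to 30.9, 48.8, 32.8 and 72.1 CPM, a log2 fold change of 2.35 (SE 0.32). Ptpn6, the phosphatase SHP-1 that inhibitory co-receptors recruit, rose from 61.8 ± 13.9 CPM (SD, n = 5) to 221 ± 37.6 CPM (SD, n = 4), without overlap. Pik3ap1, the adaptor BCAP that couples the receptor to PI3 kinase, measured 11.5, 0, 1.16, 12.3 and 3.62 CPM at E16.5 against 81.2, 75.0, 67.7 and 75.6 CPM at P3. Its P3 values lay close together and all above E16.5, with a log2 fold change of 3.29 (SE 0.35).

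Genes of the immature to mature transition mostly rose. Of 22 listed, 19 were tested, 15 rose and 1 fell, beside rises in 18.0% of all genes. The median log2 fold change was 2.28. Of the listed genes 4 (Cd74, H2-Aa, H2-Ab1 and H2-Eb1) also stand on the MHC class II list, and of the 15 other tested genes 11 rose and 1 fell. Cd40, Cd83, Fcmr, Btla and H2-Eb1 were too low for the genotype test within E16.5. Genes so low there could pass the filter of the stage test through P3 alone, so the count of rises is a description. Ms4a1 (chromosome 19, 11249675 to 11266241, minus strand) measured 155, 33.1, 50.9, 96.8 and 59.7 CPM at E16.5 and 352, 487, 308 and 574 CPM at P3. The lowest P3 library, C, lay well above the highest E16.5 library, and the log2 fold change was 2.35 (SE 0.33, edgeR adjusted p = 0.000145). Fcmr, the receptor for secreted IgM (chromosome 1, 130865669 to 130880791, plus strand), measured 5.73, 0, 4.63, 5.35 and 3.62 CPM at E16.5 and 74.9, 122, 89.0 and 111 CPM at P3. It was near its detection limit in every E16.5 library, with 23 UMIs in all against 6597 at P3, and its log2 fold change was 4.43 (SE 0.29, edgeR adjusted p = 3.61e-07).

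Tnfrsf13c, the receptor for the survival factor BAFF, rose from 86.7, 36.8, 57.9, 69.0 and 63.4 CPM to 159, 234, 146 and 206 CPM (log2 fold change 1.49, SE 0.20). Bank1, a scaffold of receptor signalling, rose from 17.3 ± 5.21 CPM (SD, n = 5) to 84.7 ± 27.1 CPM (SD, n = 4), and Siglecg, a lectin that dampens it, from 87.9 ± 34.2 CPM to 251 ± 41.6 CPM. The tetraspanin Cd37 rose by 1.44, the protease Napsa by 1.66 and Ltb, which encodes lymphotoxin beta, by 1.38 on the log2 scale, each without overlap of the stages. Cd69, an early activation antigen, was the exception. It measured 213, 151, 281, 189 and 226 CPM at E16.5 and 61.7, 103, 42.4 and 74.8 CPM at P3, higher in each E16.5 library, and fell by 1.63 on the log2 scale (SE 0.24, edgeR adjusted p = 0.000221). Il4i1, a secreted amino acid oxidase, had the largest rise among genes that met the rule for naming, from 4 UMIs in all E16.5 cells to 17.9, 31.1, 15.8 and 30.4 CPM at P3.

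**Figure D3:**
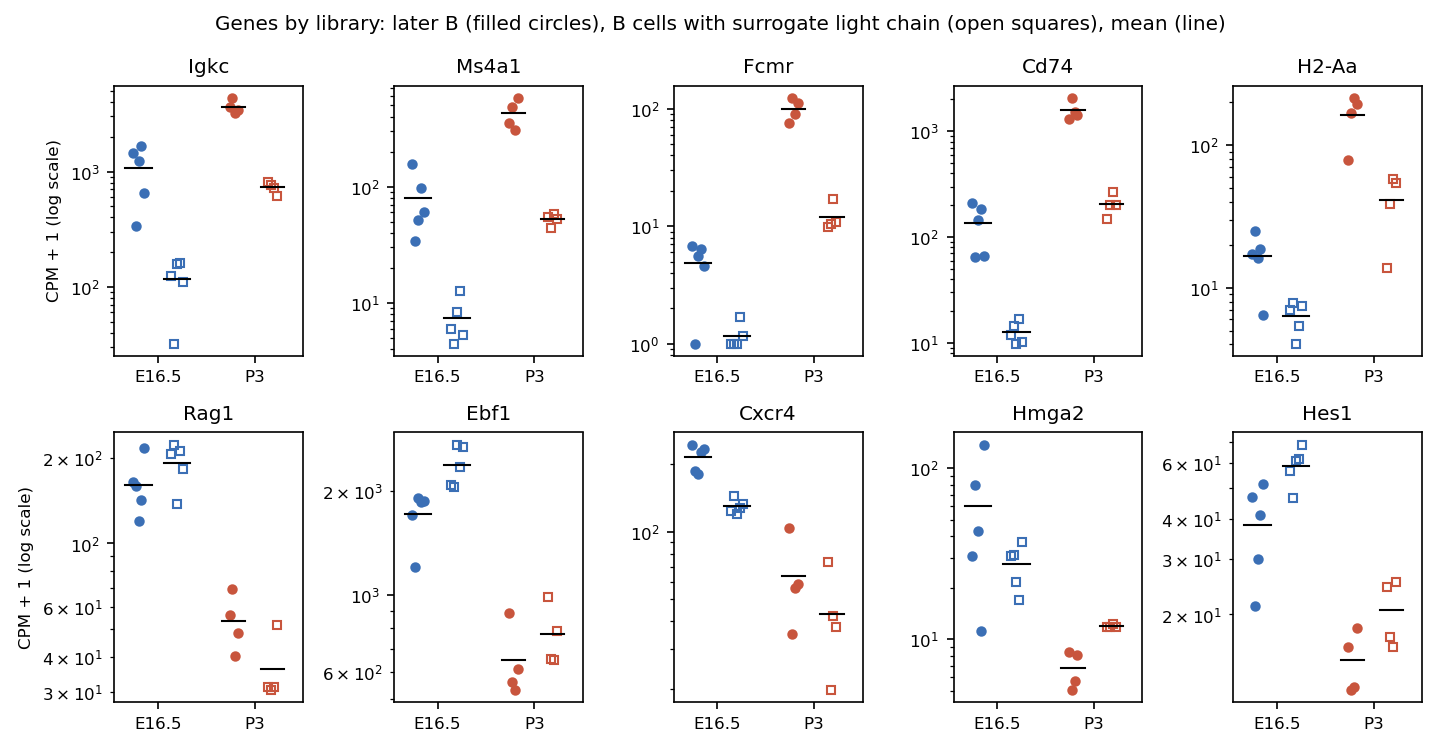
Levels of 10 genes by library in CPM plus 1 on log axes, for later B cells (filled circles) and B cells with surrogate light chain (open squares), E16.5 in blue and P3 in red, with lines at the means. Filled P3 points lie above filled E16.5 points for Igkc, Ms4a1, Fcmr, Cd74 and H2-Aa and below them for Rag1, Ebf1, Cxcr4, Hmga2 and Hes1.

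MHC class II genes, which let B cells present antigen to helper T cells, rose almost throughout. Of 10 listed, all were tested, 9 rose and 0 fell, beside rises in 18.0% of all genes. Of the 9, 4 were counted above as well, and the median log2 fold change of the list was 2.70. Of the 10, 6 (H2-Eb1, H2-DMa, H2-DMb1, H2-DMb2, H2-Oa and Ciita) were too low for the genotype test within E16.5. Genes so low there could pass the filter of the stage test through P3 alone, so the count of rises is a description. Of the other 4, Cd74, H2-Aa and H2-Ab1 rose and H2-Ob was not called. Cd74, the invariant chain that guides class II molecules to endosomes (chromosome 18, 60803848 to 60812652, plus strand), measured 208, 64.4, 145, 185 and 65.2 CPM at E16.5 and 1319, 2053, 1515 and 1412 CPM at P3. The P3 libraries were all above 1000 CPM and the E16.5 libraries all near or below 200, with a log2 fold change of 3.49 (SE 0.32, edgeR adjusted p = 6.78e-06). A Cd74 UMI was found in 4.11% to 14.2% of depth-matched E16.5 later B cells and in 38.0% to 55.8% at P3, against 0.233% to 0.733% and 3.00% to 3.47% in barcodes without Cd79a and Cd79b.

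H2-Aa, the alpha chain of I-A (chromosome 17, 34282744 to 34287823, minus strand), measured 16.4, 23.9, 15.05, 17.6 and 5.43 CPM at E16.5 and 77.4, 168, 213 and 193 CPM at P3. Library A was lowest at P3 but still above every E16.5 library, and the log2 fold change was 3.30 (SE 0.32). H2-Eb1, the beta chain of I-E, went from 1.64, 3.68, 4.63, 10.7 and 1.81 CPM to 45.6, 119, 129.9 and 154 CPM. H2-Ab1, the beta chain of I-A, went from 24.5, 11.0, 22.0, 30.5 and 12.7 CPM to 43.2, 149, 141 and 233 CPM, with library A again lowest at P3. In barcodes without Cd79a and Cd79b, the mean level of H2-Aa went from 9.48 to 98.0 CPM, of H2-Ab1 from 7.55 to 85.5 CPM and of H2-Eb1 from 4.79 to 58.3 CPM. Markers of conventional dendritic cells, which also carry class II, summed to 30.3 to 81.8 CPM in later B cells at E16.5 and 63.0 to 108 CPM at P3, against 3.44 to 13.9 and 21.3 to 25.8 CPM in those barcodes. Of the 6 markers, 2 to 4 were detected per E16.5 library and 5 to 6 per P3 library. Only Wdfy4 was high enough for a stage test. The part of such cells, or of the rise in those barcodes, in the rise of these 3 genes was not tested.

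The peptide-loading genes H2-DMa, H2-DMb1 and H2-DMb2 rose by 1.92, 2.49 and 2.87 on the log2 scale. H2-Oa and H2-Ob encode the 2 chains of H2-O, which restrains that loading, and they parted. H2-Oa rose from 3.27, 3.68, 4.63, 3.74 and 3.62 CPM to 19.2, 26.3, 23.6 and 36.3 CPM (log2 fold change 2.76, SE 0.28). H2-Ob stayed between 20.1 and 29.5 CPM in all 9 libraries and was not called (log2 fold change -0.17, SE 0.17, edgeR adjusted p = 0.444). Ciita, the transactivator of class II genes, measured 5.73, 5.52, 3.47, 5.35 and 1.81 CPM at E16.5 and 4.94, 17.5, 26.4 and 28.0 CPM at P3. Library A lay within the E16.5 range, the other 3 P3 libraries above it, and the rise of 1.98 (SE 0.54, edgeR adjusted p = 0.0118) was lost with sex as a term.

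Since these genes moved together, their promoters are shown for 3 of them, from RefSeq on GRCm38.p6, as the 250 bases before the gene's start read along the gene's strand. Capitals mark TGATTGG, the Y box of class II promoters, which is bound by factor NF-Y. H2-Aa covers chr17:34287824-34288073 (minus strand), H2-Eb1 chr17:34305617-34305866 (plus strand) and H2-DMb1 chr17:34152941-34153190 (plus strand).
H2-Aa: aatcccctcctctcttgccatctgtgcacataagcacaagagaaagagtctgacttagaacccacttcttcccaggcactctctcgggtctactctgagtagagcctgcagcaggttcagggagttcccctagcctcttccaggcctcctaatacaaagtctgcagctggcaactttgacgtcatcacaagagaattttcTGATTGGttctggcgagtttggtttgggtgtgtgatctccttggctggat
H2-Eb1: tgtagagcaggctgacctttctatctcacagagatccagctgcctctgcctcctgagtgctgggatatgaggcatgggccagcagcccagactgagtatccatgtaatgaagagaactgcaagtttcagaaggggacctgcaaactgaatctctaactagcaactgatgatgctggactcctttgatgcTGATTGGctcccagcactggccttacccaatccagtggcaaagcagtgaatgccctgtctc
H2-DMb1: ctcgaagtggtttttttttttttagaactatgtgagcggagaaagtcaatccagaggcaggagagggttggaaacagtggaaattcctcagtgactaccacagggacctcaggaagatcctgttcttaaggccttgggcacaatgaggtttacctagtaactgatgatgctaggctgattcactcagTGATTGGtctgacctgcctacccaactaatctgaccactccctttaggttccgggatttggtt
The Y box began 50, 61 and 63 bases before the start of H2-Aa, H2-Eb1 and H2-DMb1. RefSeq windows were found for 7 of the 10 listed genes, and 6 of the 7 (H2-Aa, H2-Eb1, H2-DMb1, H2-DMb2, H2-Oa and H2-Ob) held TGATTGG on either strand within 250 bases before to 50 after the start. Among all 32851 such windows of 300 bases, 2568 (7.82%) held it. H2-Ob, which was not called, carried the motif too, and H2-DMa, which rose, did not. H2-Ab1, Cd74 and Ciita had no window.

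MHC class I genes gave a smaller rise, with 5 of 8 tested genes higher and 0 lower (median log2 fold change 1.05), beside rises in 18.0% of all genes. H2-K1, a class I heavy chain, measured 76.1, 49.7, 72.9, 125 and 47.1 CPM at E16.5 and 235, 388, 381 and 259 CPM at P3, with no overlap and a log2 fold change of 2.00 (SE 0.25). Its near-identical relatives in the H2 region may share reads with it. In barcodes without Cd79a and Cd79b the mean level of H2-K1 went from 26.9 to 140.0 CPM.

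Genes of the earlier B-cell stages were lower at P3 or not called. Of 15 pro-B and pre-B genes listed, 13 were tested, 9 fell and 0 rose, beside falls in 19.7% of all genes. The median log2 fold change was -0.81. When cells with a Vpreb2 UMI were also left out, 5 fell. Vpreb2, which is so similar to Vpreb1 that reads may be shared, is not part of the gate. It measured 9.82, 16.6, 11.6, 9.09 and 41.6 CPM at E16.5 and 2.20, 0.681, 1.60 and 0.944 CPM at P3, with Jag1Ndr/Ndr replicate 2 far above the other E16.5 libraries. Cd93, a surface marker of immature B cells, measured 144, 151, 133, 124 and 179 CPM at E16.5 and 67.3, 62.7, 59.6 and 62.6 CPM at P3, a clear separation with a fall of 1.25 on the log2 scale (SE 0.14, edgeR adjusted p = 2.71e-05). Cd24a, the heat-stable antigen of young B cells, fell by 0.95 on the log2 scale, but it was about as high in barcodes without Cd79a and Cd79b, at 1324 and 1061 CPM. Il7r, the receptor for interleukin 7 that sustains pro-B and pre-B cells, overlapped, and its fall of 0.61 (edgeR adjusted p = 0.0322) was lost in 9 alternatives. Vpreb3, at 1375 ± 413 CPM (SD, n = 5) and 1076 ± 199.8 CPM (SD, n = 4), was not called (log2 fold change -0.39, edgeR adjusted p = 0.192).

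In the V(D)J recombination list 12 of 13 genes were tested, 5 fell (Rag1, Rag2, Lig4, Hmgb1 and Hmgb2) and 0 rose, beside falls in 19.7% of all genes, with a median log2 fold change of -0.09 that turned positive in 3 of 20 alternatives. Rag1 (chromosome 2, 101638282 to 101649501, minus strand) measured 164, 158, 119, 141 and 215 CPM at E16.5 and 54.9, 68.4, 39.1 and 47.3 CPM at P3. Each E16.5 library held more than any P3 library, and the log2 fold change was -1.63 (SE 0.20, edgeR adjusted p = 5.01e-05). Rag2 measured 39.3, 36.8, 24.3, 40.1 and 34.4 CPM at E16.5 and 19.6, 15.4, 18.7 and 13.8 CPM at P3, also without overlap, and fell by 1.10. In barcodes without Cd79a and Cd79b both genes stayed under 2 CPM.

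Transcription factors of the lineage were called about as often as other genes. Of 20 tested, 6 fell and 3 rose, beside 19.7% and 18.0% of all genes tested, with a median log2 fold change of -0.24. Ebf1, a factor that sets up the B lineage (chromosome 11, 44617317 to 45008091, plus strand), measured 1703, 1201, 1907, 1862 and 1872 CPM at E16.5 and 884, 558, 529.6 and 611 CPM at P3, and its fall had a log2 fold change of -1.45 (SE 0.20, edgeR adjusted p = 0.000150). Pax5, which keeps cells in the lineage, measured 178, 116, 61.3, 109 and 161 CPM at E16.5 and 123, 155, 127 and 185 CPM at P3. Those ranges overlapped and Pax5 was not called (log2 fold change 0.20, edgeR adjusted p = 0.551). Lef1, a Wnt-responsive factor of pro-B and pre-B cells, fell from 57.1 ± 12.8 CPM (SD, n = 5) to 24.7 ± 1.82 CPM (SD, n = 4), and Myb, a progenitor factor, from 336 ± 62.4 to 143 ± 16.4 CPM. Irf4, which acts in light chain rearrangement and in plasma cells, fell by 1.17, and Tcf4, the factor E2-2, by 0.81 on the log2 scale. Sox4, a factor of progenitors, fell by 0.76 with overlapping stages.

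Ikzf3 (Aiolos), which acts from the pre-B stage onward, rose by 1.13 and Irf8, a relative of Irf4, by 1.09 on the log2 scale. Spi1, the myeloid and B-cell factor PU.1, measured 69.5, 55.2, 54.4, 70.0 and 47.1 CPM at E16.5 and 192, 201, 191 and 138 CPM at P3, with library D lowest at P3. It was also high in barcodes without Cd79a and Cd79b, at 35.1 CPM at E16.5 and 196 CPM at P3, and the part of free myeloid RNA in its rise was not tested.

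Genes of the fetal lymphoid programme were called about as often as other genes. Of 14 listed, 9 were tested, 3 fell and 1 rose, beside 37.7% of all genes called, with a median log2 fold change of 0.23. Hmga2, a chromatin protein of fetal cells, measured 29.5, 79.1, 41.7, 10.2 and 136 CPM at E16.5 and 7.37, 4.04, 4.70 and 7.08 CPM at P3. The E16.5 libraries differed over 10-fold among themselves, with Jag1Ndr/Ndr replicate 1 lowest and replicate 2 highest, and all exceeded P3 (log2 fold change -3.23, SE 0.55, edgeR adjusted p = 0.000589). Lin28b, the RNA-binding protein that sets the fetal type of B lymphopoiesis, measured 12.3, 23.9, 10.4, 15.5 and 12.7 CPM at E16.5 and 7.68, 6.56, 5.93 and 7.84 CPM at P3. It fell by 1.09 on the log2 scale, in a call that was lost without barcodes that held an excess of other cells' transcripts. Igf2bp1, another fetal RNA-binding protein, fell by 2.63, and its level in barcodes without Cd79a and Cd79b was 9.51 CPM at E16.5 and 3.29 CPM at P3. Arid3a (Bright), a factor linked with fetal and B-1 cells, rose by 0.55, which was lost with sex as a term. Cd5, the surface marker of B-1a cells, was too low to be tested.

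Homing genes moved in both directions. Of 16 listed, 14 were tested, 5 rose and 3 fell, beside rises in 18.0% and falls in 19.7% of all genes. Over 20 alternatives 3 to 6 rose, and in 6 of them the median log2 fold change of -0.08 changed sign. Cxcr5, Itgb7 and Cnr2 were too low for the genotype test within E16.5. Genes so low there could pass the filter of the stage test through P3 alone. Cxcr4, the receptor that holds developing B cells near their stroma, measured 243, 186, 181, 226 and 234 CPM at E16.5 and 103, 34.1, 55.4 and 57.4 CPM at P3. The highest P3 library, A, stayed below every E16.5 library, and the log2 fold change was -1.82 (SE 0.26, edgeR adjusted p = 0.000175). Cxcr5, which guides B cells into follicles, went from 5 UMIs in all E16.5 libraries to 5.47, 8.41, 6.21 and 11.4 CPM at P3. Itga4, an integrin subunit, fell from 273 ± 63.7 CPM (SD, n = 5) to 133 ± 19.8 CPM (SD, n = 4), and its partner Itgb7 rose from 1.78 ± 0.580 CPM to 11.0 ± 2.64 CPM. Itgb7 was at least as high in barcodes without Cd79a and Cd79b, at 2.84 and 14.8 CPM. Ccr9, a receptor for a gut and thymus chemokine that plasmacytoid dendritic cells also carry, went from 2.45, 9.20, 19.7, 9.62 and 9.05 CPM to under 1.1 CPM.

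Survival genes gave 5 rises and 2 falls among 15 tested (median log2 fold change 0.26), with 3 to 6 rises over 20 alternatives, beside rises in 18.0% of all genes. Bcl2, which protects mature lymphocytes from apoptosis, measured 4.91, 7.36, 2.31, 5.88 and 5.43 CPM at E16.5 and 16.6, 24.8, 22.0 and 25.6 CPM at P3, and Bcl2l1 (Bcl-xL), its relative of the pre-B stage, measured 162, 129, 124, 156 and 127 CPM at E16.5 and 71.2, 60.1, 89.0 and 72.2 CPM at P3. The 2 moved in opposite directions without overlap, with log2 fold changes of 2.08 (SE 0.27) and -0.99 (SE 0.15). Nfkb2, the precursor of the noncanonical NF-kB subunit, rose from 7.80 ± 3.80 CPM (SD, n = 5) to 35.2 ± 6.33 CPM (SD, n = 4). Tnfrsf13b (TACI), a second BAFF receptor, rose by 1.16 on the log2 scale.

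Of 18 G2/M genes tested, 10 fell at P3 and 0 rose (median log2 fold change -0.44), beside falls in 19.7% of all genes tested. Without library B 5 of them fell. Of 20 S phase genes 6 fell and 0 rose (median -0.34), which is nearer to that background, and 2 fell without E16.5 Jag1Ndr/Ndr replicate 1. Cdk1, the kinase that drives mitosis, measured 239.7, 164, 218, 253 and 130.3 CPM at E16.5 and 107, 64.7, 109 and 61.6 CPM at P3, a separation with a log2 fold change of -1.29 (SE 0.23). Ube2c, a ubiquitin enzyme of mitotic exit, fell from 689 ± 133 CPM (SD, n = 5) to 361 ± 54.5 CPM (SD, n = 4). Mki67 and Top2a overlapped between stages and were not called (edgeR adjusted p = 0.0848 and 0.528). At least 2 UMIs of the G2/M list were found in 81.8%, 87.3%, 71.9%, 78.0% and 75.3% of depth-matched E16.5 cells and in 32.3%, 28.6%, 62.6% and 42.4% of P3 cells (exact permutation p = 0.0159, two-sided, adjusted p = 0.0254). Barcodes with at least 3 UMIs of Retnlg, a gene of mature neutrophils that no longer divide, reached 47.9% to 67.8% by the same count at E16.5 and 19.4% to 23.3% at P3. The share in later B cells is therefore no count of dividing cells at either stage, and the part of free RNA in the difference was not tested.

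Immediate early and heat shock genes, which respond to handling and to receptor signals, fell or were not called. Of 15 tested, 9 fell and 0 rose (median log2 fold change -0.73), beside falls in 19.7% of all genes. When barcodes with an excess of other cells' transcripts were left out, 5 fell. Nr4a1, which antigen receptor signals induce, measured 31.9, 46.0, 18.5, 14.97 and 36.2 CPM at E16.5 and 6.77, 4.38, 3.76 and 3.49 CPM at P3, and Zfp36, a protein that destabilises mRNA, measured 196, 175, 149, 173 and 110.4 CPM at E16.5 and 46.3, 22.5, 17.4 and 23.7 CPM at P3. Both separated the stages and fell by 2.60 and 2.59 on the log2 scale. In barcodes without Cd79a and Cd79b, Nr4a1 went from 13.9 to 4.77 CPM and Zfp36 from 59.8 to 13.7 CPM, and the digestion differed between the stages, so a difference of the cells and one of the procedure cannot be told apart.

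Of 13 interferon-stimulated genes tested, 7 rose at P3, 0 fell and 6 were not called (median log2 fold change 0.86), beside rises in 18.0% of all genes. Ifit2, Irf7, Oasl2, Xaf1, Usp18 and Ly6a were too low for the genotype test within E16.5. Genes so low there could pass the filter of the stage test through P3 alone, so the count of rises is a description. Ifi27l2a measured 42.5, 27.6, 46.3, 141 and 50.7 CPM at E16.5 and 218, 290.3, 630.3 and 343 CPM at P3, and Jag1Ndr/Ndr replicate 1 stood above the other E16.5 libraries. Irf7, a factor that amplifies the response, rose from 5.12 ± 3.66 CPM (SD, n = 5) to 37.6 ± 22.3 CPM (SD, n = 4). Isg15, a ubiquitin-like protein, was higher in barcodes without Cd79a and Cd79b, at 29.9 and 264 CPM, than in later B cells, and its call was lost (edgeR adjusted p = 0.796) without barcodes that held an excess of other cells' transcripts.

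Of 15 plasma cell and class switch genes, 5 could be tested, 2 fell and 1 rose, too few to set against the 37.7% of all genes called. None of the IgG, IgA and IgE constant genes reached the level needed for a test. Mzb1, a chaperone of antibody assembly, measured 448, 215, 506, 516 and 404 CPM at E16.5 and 2.24, 2.97, 0.658 and 0.661 CPM at P3, the largest fall among genes that met the rule for naming (log2 fold change -7.90, SE 0.45). It was also listed at 7.18 CPM at E16.5 and 0.0249 CPM at P3 in barcodes without Cd79a and Cd79b, a shift of over 16-fold outside the B lineage as well. Brms1, a corepressor subunit, did the same, from 22.5 to 0.153 CPM in later B cells and from 8.60 to 0.0680 CPM in those barcodes. Such shifts, found for 19 called genes, cannot be told apart from the different gene lists of the stages. Sdc1 (CD138), a surface proteoglycan of plasma cells that pre-B cells also carry, measured 12.3, 14.7, 15.05, 9.62 and 18.1 CPM at E16.5 and 2.96, 2.48, 3.86 and 3.12 CPM at P3 and fell by 2.15 on the log2 scale.

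The other genes named by size rather than by list add to this. Cyb561a3, an ascorbate-dependent reductase, rose from 3.27, 1.84, 3.47, 2.14 and 0 CPM to 53.0, 41.5, 56.4 and 42.9 CPM. Prg3 rose from 5.73, 3.68, 1.16, 3.21 and 1.81 CPM to 6.23, 31.2, 22.5 and 36.5 CPM, with library A just above the E16.5 range, and Myo1e, an unconventional myosin, from 2.45, 5.52, 6.94, 2.67 and 0 CPM to 12.8, 34.8, 15.2 and 33.6 CPM. Among the falls, Il12a, a subunit of interleukins 12 and 35, measured 94.1, 46.0, 138, 104 and 83.3 CPM at E16.5 and 22.7, 32.9, 14.3 and 18.3 CPM at P3, and Tmem108 measured 82.6, 57.0, 72.9, 82.9 and 130.3 CPM at E16.5 and 19.2, 21.1, 21.3 and 22.3 CPM at P3. Both separated the stages, with log2 fold changes of -2.13 and -2.06 and levels under 3 CPM in barcodes without Cd79a and Cd79b. Sap30, a histone deacetylase subunit, Plk2, a polo-like kinase, Mfsd4a and Cox6a2 fell by 1.97, 1.86, 2.07 and 2.76 on the log2 scale.

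**Figure D4:**
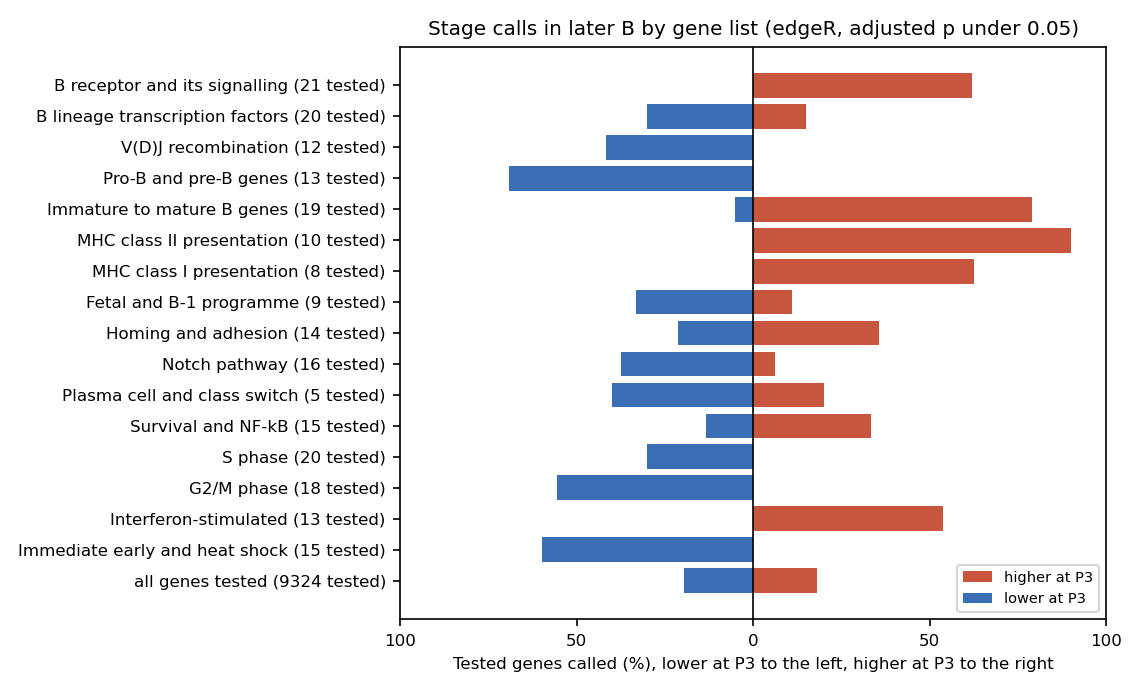
Share of tested genes of each B-cell, pathway or response list called higher (red, to the right) or lower (blue, to the left) at P3 in later B cells, at an adjusted p under 0.05 in edgeR. Markers of other cells are not drawn. Among the lists drawn, MHC class II genes reach furthest to the right, with 9 of 10, and pro-B and pre-B genes furthest to the left, with 9 of 13, against 18.0% higher and 19.7% lower among all 9324 genes tested.

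The Notch pathway was examined because Jag1 encodes one of its ligands. Of 27 genes listed, 16 were tested between the stages, 6 fell and 1 rose, beside falls in 19.7% and rises in 18.0% of all genes. The median log2 fold change was -0.13. Jag1 itself had 0 UMIs in later B cells at E16.5 and 21 at P3, so transcripts of the mutated gene were hardly detected in the cells described. Notch1 measured 36.0, 68.1, 31.3, 39.6 and 45.3 CPM at E16.5 and 28.4, 20.5, 24.9 and 21.2 CPM at P3, without overlap, and fell by 0.88 (SE 0.21, edgeR adjusted p = 0.00535). Notch2, the receptor that directs marginal zone B cells, overlapped and was not called (edgeR adjusted p = 0.0662).

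Hes1, a direct target of Notch signals (chromosome 16, 30064384 to 30067796, plus strand), measured 45.8, 20.2, 28.9, 40.1 and 50.7 CPM at E16.5 and 14.8, 10.5, 10.8 and 17.2 CPM at P3. It was lower in every P3 library, with a log2 fold change of -1.54 (SE 0.23, edgeR adjusted p = 0.000271), and stood at 3.34 and 3.18 CPM in barcodes without Cd79a and Cd79b. Adam10, the protease that cleaves Notch receptors after ligand binding, fell from 177 ± 37.5 CPM (SD, n = 5) to 66.5 ± 6.83 CPM (SD, n = 4), and Maml1, a coactivator of the Notch complex, by 1.68 on the log2 scale. In the test of whether a stage difference itself differed between the 2 B-cell sets, described below, 1 of 22 Notch genes was called (Numb, an antagonist), beside 14.5% of all genes, and Hes1 was not (difference 0.04, edgeR adjusted p = 0.983).

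At E16.5 the genotypes could be compared, with 2 Jag1Ndr/Ndr libraries against the 3 without the homozygous label. Later B cells were 1.36% and 0.276% of passing barcodes in the Jag1Ndr/Ndr libraries and 0.930%, 0.306% and 0.527% in the others. The homozygous libraries were the highest and the lowest of the 5, and over the 8 tested shares the exact permutation p ran from 0.6 to 1 (two-sided, where 2 against 3 libraries cannot go below 0.2). Deviations from the group means correlated positively between libraries of the same replicate number. With 2 and 3 libraries these deviations are tied to one another, so the correlations cannot establish a pairing. The shares were also compared within a number, in 3 pairs of a Jag1Ndr/Ndr library and another. In all 3 pairs the Jag1Ndr/Ndr library was higher in 2 of 10 shares, the share of later B cells in both B-cell sets (13.5% against 9.93% and 7.01%, and 5.41% against 3.95%) and the share with a light chain UMI (67.6% against 61.9% and 51.6%, and 47.9% against 30.2%). The first was set by the rule and not tested. Within numbers the exact permutation p of the second was 0.333 (two-sided), where 6 arrangements cannot go below 0.167, so this design cannot call such a difference. No gene of 7919 tested was called in edgeR's quasi-likelihood test (0.0%), and by DESeq2 the count was 0 as well. Without adjustment, 162 genes in edgeR and 59 in DESeq2 had a p under 0.05. Of 14 Notch genes tested, 0 were called, with a median log2 fold change of -0.04. Hes1 measured 40.1 and 50.7 CPM in Jag1Ndr/Ndr and 45.8, 20.2 and 28.9 CPM in the others. Those ranges overlapped (log2 fold change 0.41, SE 0.33, edgeR adjusted p = 1.00). Between 0 and 3 genes were called when single libraries were left out, with 3 without Jag1+/+ replicate 1 and 1 without Jag1Ndr/Ndr replicate 2. The libraries were small, and on simulated data of this size 15% of 2-fold and 82% of 4-fold changes were recovered, so moderate differences would mostly have been missed.

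At P3, only library C carried the homozygous label alone and only library D the heterozygous label alone, so the values have no replicate check and no test. All 15024 passing barcodes of library C held at least 2000 UMIs, against 13252 of 17036 in library D. Among later B cells these were 1530 of 1530 and 1479 of 2563. The part of this difference in depth in the values below was not tested. Of 5883 genes with at least 20 CPM in either library, 76 (1.29%) were at least 2-fold higher and 61 (1.04%) at least 2-fold lower in C on plain CPM. Ms4a1 measured 331 CPM in library C (exact Poisson 95% interval 319 to 342, counting error only) and 660.3 CPM in library D (644 to 677). Ly6d, a surface protein of B-cell progenitors, was at 146 CPM (138 to 154) in C against 584 CPM (568 to 599.8) in D, and after TMM scaling at 353, 234, 595, 749 and 266 CPM at E16.5 and 406, 484, 136 and 507 CPM at P3, so that library C lay below the other 8. Of 17 immature to mature genes at 20 CPM, 2 were at least 2-fold lower in C and 0 higher. Irf7 measured 73.4 CPM (68.2 to 78.9) in C and 35.3 CPM (31.6 to 39.4) in D, and 2 of 7 interferon-stimulated genes were at least 2-fold higher in C. Markers of other cells differed as well. Megakaryocyte markers were at least 2-fold higher in C in 4 of 4 (median log2 ratio 2.73), T and NK and basophil and mast markers in 1 of 2 each, erythroid markers in 1 of 7, and neutrophil markers in 5 of 8, among them Ltf at 1065 CPM (1045 to 1086) against 401 CPM (389 to 415), and their part in these differences was not tested. Hes1 was at 11.6 CPM (9.57 to 13.9) in C and 19.8 CPM (17.0 to 22.9) in D, while libraries A and B held 14.8 and 10.5 CPM after TMM scaling.

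Later B cells differed from B cells with surrogate light chain in ways that follow from the rule and are given as a description. Among 5304 genes with a mean of at least 20 CPM, 476 (8.97%) were higher and 851 (16%) lower in later B cells in all 9 libraries. The 10 largest ratios upward were those of Iglc1, Iglc3, Ly6d, Cd74, Ms4a1, Cd2, Rnase6, Igkc, Shisa8 and Adam19. Igkc averaged 1068 CPM in later B cells against 116 CPM at E16.5 and 3623 against 727 CPM at P3, a median log2 ratio over the 9 libraries of 2.55. Cd2, an adhesion receptor that pre-B cells gain once they lose the surrogate chain, averaged 21.0 against 0.838 CPM and 49.8 against 10.6 CPM. The 10 largest ratios downward were those of Vpreb2, Fcrl6, Arpp21, Rnase12, Bcat1, Enpep, Impdh1, Lef1, Bfsp2 and Uaca. Enpep, the aminopeptidase BP-1 of pre-B cells, averaged 3.14 against 25.6 CPM at E16.5 and 1.02 against 14.9 CPM at P3. Rag1 and Il7r did not follow this pattern. Rag1 was higher in later B cells in 4 libraries and lower in 5, and Il7r higher in 6 and lower in 3.

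Whether the stage difference itself differed between the 2 sets was tested with the library as a block. Of 11941 genes, 1727 were called (14.5%), with the P3 over E16.5 difference larger in later B cells for 831 (6.96%) and smaller for 896 (7.50%). Without library B 1060 genes were called. In the set with surrogate light chain, many more P3 barcodes sat at the edge of the gate. At E16.5, 38 of 1597, 31 of 1530, 61 of 2030, 56 of 1598 and 25 of 1276 held 1 surrogate light chain UMI. At P3 these were 232 of 874, 138 of 481, 141 of 625 and 73 of 273. Their part in the differences between the sets was not tested. The difference of log2 fold changes, later B cells minus cells with surrogate light chain, is given below. Survival genes were called upward in 5 of 15 and downward in 0 (median 0.43 against 0.02 for all genes). Bcl2 measured 8.90, 9.28, 8.44 and 12.6 CPM at P3 in cells with surrogate light chain, up from 5.92, 6.83, 4.54, 6.22 and 6.09 CPM, so that its rise was smaller there (difference 1.38, SE 0.27, edgeR adjusted p = 0.00255). Immature to mature genes were called upward in 8 of 22 and downward in 2.

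In cells with surrogate light chain Bank1 overlapped between the stages, with 13.2, 18.1, 21.8, 21.4 and 15.3 CPM at E16.5 and 18.98, 16.03, 17.5 and 21.0 CPM at P3. The difference to later B cells was 2.21 (SE 0.25, edgeR adjusted p = 1.66e-05). H2-Oa gave a difference of 2.39 (SE 0.28), with 5.87, 4.72, 7.13, 6.85 and 6.81 CPM and 6.30, 6.92, 9.94 and 9.78 CPM in the other set. Nfkbid, a nuclear inhibitor of the NF-kB family, rose from 19.4 ± 2.46 CPM (SD, n = 5) to 47.5 ± 10.6 CPM (SD, n = 4) in later B cells but stood at 17.3 and 11.1 CPM in the other set (difference 1.91, SE 0.19). Ltb gave a difference of 1.47 (SE 0.20). Il4i1 had the largest upward difference among the genes named here, 2.49 (SE 0.79, edgeR adjusted p = 0.0408), but rested on 4 UMIs in E16.5 later B cells and lost its call in 10 alternatives, with a difference of 1.63 without Jag1Ndr/Ndr replicate 1. Ms4a1 and Cd74 had higher mean levels at P3 in both sets, and their differences of -0.65 and -0.61 were not called (edgeR adjusted p = 0.197 and 0.106).

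Light chain genes lay on the other side. Iglc1 went from 2.24, 0.282, 4.67, 3.28 and 1.28 CPM to 101, 69.5, 87.1 and 95.5 CPM in cells with surrogate light chain, a larger difference than in later B cells on the log scale, though to a lower level (difference -3.55, SE 0.23, edgeR adjusted p = 3.61e-08). Igkc did likewise (difference -0.88, SE 0.15). Iglc2 gave -2.43, which shrank to -0.75 without E16.5 Jag1Ndr/+ replicate 1. Blk, a Src kinase of the receptor, reached 77.9 CPM at P3 from 9.65 CPM at E16.5 in that set, against 80.1 from 40.8 CPM in later B cells (difference -2.02, SE 0.17). Cd2 gave -2.35 and Ly6d -1.57. Rbm24, an RNA-binding protein, averaged 26.5 and 8.52 CPM at E16.5 and P3 in later B cells and 1.69 and 2.39 CPM in the other set (difference -2.04, SE 0.30).

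S phase genes moved nearly all one way, with 19 of 20 called downward and 0 upward (median -0.68), and 17 to 19 in every alternative. Mcm3, a subunit of the replicative helicase, measured 121, 153, 129.6, 141 and 138 CPM at E16.5 and 123, 153, 199 and 173 CPM at P3 in later B cells, which overlap. In cells with surrogate light chain it went from 147, 137, 132, 142 and 132 CPM to 250.3, 314, 309 and 284 CPM, which do not overlap, so that the difference was -0.82 (SE 0.11, edgeR adjusted p = 0.000138). Hells, a chromatin remodeller of dividing cells, gave -0.98. Of 18 G2/M genes 4 were called downward, beside 7.50% of all genes, a count that ran from 2 without library B to 12. Rag1 fell more in cells with surrogate light chain, from 191 to 35.2 CPM (difference 0.94), as did Cd69, from 398 to 50.9 CPM (difference 1.39). Markers of other cells moved with this comparison, as 8 of 8 hepatocyte and 8 of 9 erythroid genes were called upward, beside 6.96% of all genes. Without barcodes that held an excess of such transcripts, 4 of each were called upward. Basophil and mast markers were called upward in 5 of 5, mesenchymal markers in 3 of 5 and neutrophil markers in 3 of 8, and without those barcodes 5 of the 8 neutrophil markers were called downward and 2 upward (median -0.84). The basophil and mast count rests in part on values of 0, as Ms4a2 and Prss34 had no UMI in E16.5 later B cells. Single genes of the monocyte and macrophage, conventional dendritic and megakaryocyte lists were called upward, and 1 plasmacytoid dendritic gene downward. Their part in the comparison was not tested.

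Later B cells also varied within each library. Those with an Ms4a1 UMI numbered 1670, 1691, 631 and 1451 at P3, of 3822, 3490, 1530 and 2563, but only 40, 7, 18, 46 and 8 at E16.5, so the P3 values carry the description, which has no test. Cells with Ms4a1 held more Cd74, Ltb, Bcl2, Ly6d, Igkc and Ighd in 4 of 4 P3 libraries, with median log2 ratios of 3.23, 2.22, 2.17, 2.12, 1.71 and 1.17 (on CPM plus 1). They held less Rag2, Il7r, Rag1, Sox4 and Cd93 in 4 of 4, with medians of -3.26, -3.03, -2.70, -2.26 and -1.12. Rag1, for example, stood at 17.2, 14.1, 11.7 and 13.3 CPM in P3 cells with Ms4a1 and at 88.5, 142, 68.0 and 111 CPM in those without. Median depths with and without Ms4a1 were similar in libraries A, B and D (4165.5 and 4257, 3160 and 3008, and 2357 and 2574 UMIs), and in library C cells with Ms4a1 were deeper (5629 against 4556). At E16.5, Cd74, Ltb and Ly6d were higher and Rag2, Il7r and Sox4 lower in the cells with Ms4a1 in 5 of 5 libraries, while Rag1 was lower in 4 of 5. Other genes did not follow P3 in these few cells, as Ighd was higher in 1 of 5 (median log2 ratio -0.83) and Bcl2 in 2 of 5 (-1.49). The globin gene Hbb-bs, a marker of erythroid cells, was higher in the cells with Ms4a1 in 5 of 5 E16.5 libraries (0.51) and in 1 of 4 P3 libraries (-0.26), and its part in the split was not tested.

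**Figure D5:**
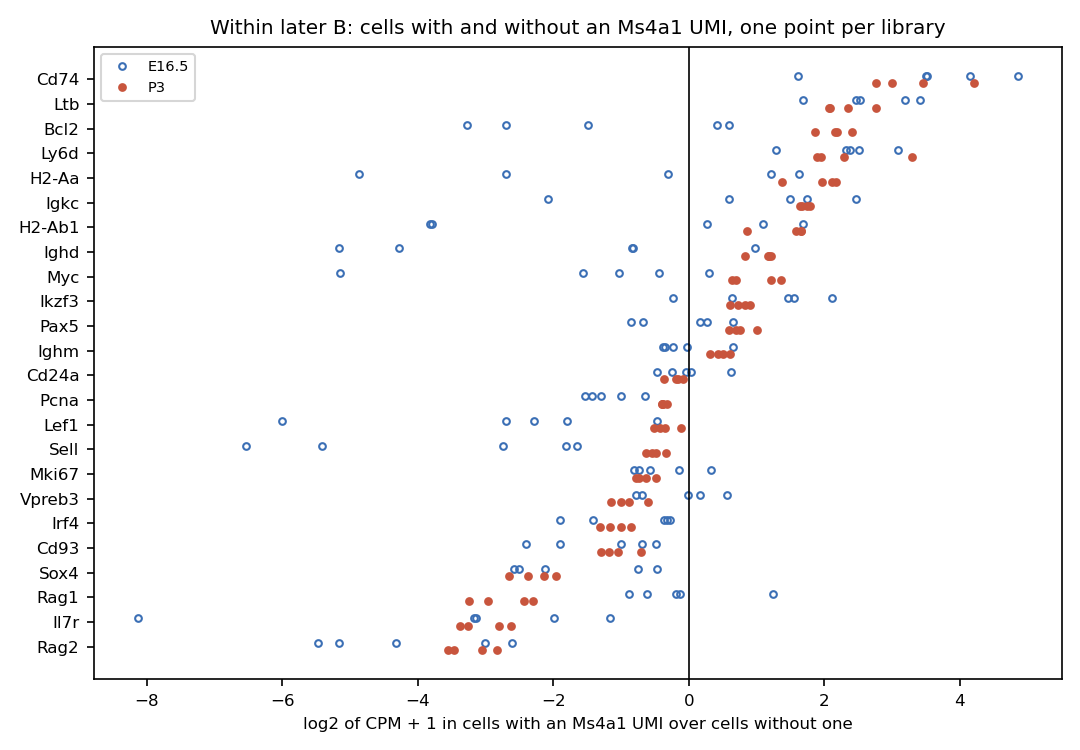
Log2 ratio of CPM plus 1 between later B cells with and without an Ms4a1 UMI for 24 genes, 1 point per library (E16.5 open blue, P3 filled red), ordered by the P3 values. P3 points run from 2.76 to 4.21 for Cd74 and from -3.55 to -2.83 for Rag2, and E16.5 points, which rest on 7 to 46 cells with Ms4a1, scatter widely.

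A split by cell cycle transcripts ran the other way for some of these genes. P3 cells that held at least 2 G2/M list UMIs after reduction to 1000 UMIs (1233, 998, 958 and 1087), whereas the Ms4a1 split used all UMIs, had more Rag2, Il7r and Cd24a in 4 of 4 libraries (median log2 ratios 0.91, 0.39 and 0.58), and less Cd74, Ms4a1, Ltb and Igkc (-1.70, -1.54, -1.40 and -0.97). Rag1 was lower in 4 of 4 libraries (-0.76) and Cd93 in 3 of 4 (-0.66), as in the cells with Ms4a1. The cells with G2/M UMIs were also deeper, with medians of 7416, 6819.5, 5472.5 and 4049 UMIs against 2863, 2381, 4454 and 1591.5, and Hbb-bs was lower in them in 4 of 4 (-0.74), and the part of either in these ratios was not tested. At E16.5 the same split gave other directions for some genes. Il7r and Cd24a were higher in 5 of 5 libraries as well, but so were Ighm and Ighd (medians 0.52 and 0.99), which were lower in 4 of 4 at P3. Igkc was higher in 3 of 5 (0.32), Rag2 and Rag1 in 3 of 5 (0.56 and 0.01), and Cd74, Ms4a1 and Ltb in 2 of 5 (-0.44, -0.92 and -0.13).

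Transcripts of other cells were present in later B cells at both stages and differed between them. Globin and other erythroid genes took 193557 to 356173 CPM at E16.5 (medians of 932 to 1959 UMIs per cell) and 68764 to 134782 CPM at P3 (14 to 36 UMIs per cell), and 6 of 9 tested markers were called lower. Hepatocyte markers summed to 1495 to 2014 CPM at E16.5 and 423 to 1205 CPM at P3, with 5 of 8 called lower. Neutrophil markers summed to 8929 to 15958 and 17838 to 43726 CPM (5 of 8 called higher), and monocyte and macrophage markers to 335 to 772 and 1358 to 2462 CPM (8 of 8 called higher). In barcodes without Cd79a and Cd79b the monocyte and macrophage markers summed to 893 to 1540.2 and 2428 to 5217 CPM. Of all genes tested in later B cells, 18.0% were called higher and 19.7% lower at P3.

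Plasmacytoid dendritic markers summed to 23.3 to 139 CPM at E16.5 and 12.8 to 18.7 CPM at P3, against 3.35 to 16.9 and 9.85 to 18.7 CPM in barcodes without Cd79a and Cd79b. The defining marker Siglech was found in 0.568% to 6.35% of unreduced E16.5 later B cells and in 0.195% to 0.497% at P3, and Klk1 was at 0 at E16.5. Ccr9 and Cox6a2 belong to this list, and the part of such cells in their fall was not tested. T and NK markers summed to 11.5 to 49.1 CPM at E16.5, with Cd3e and Cd3g at 0 in every library, and to 48.6 to 106.9 CPM at P3, with 2 of 4 tested called higher. Basophil and mast markers summed to 0 to 26.6 and 35.3 to 85.2 CPM. Only Mcpt8 and Prss34 were tested, and both were called higher. Ms4a2 and Prss34 were at 0 in every E16.5 library, so Prss34 passed the low-count filter only through P3. The count of calls is therefore no result. The T and NK sums were 21.5 to 50.1 and 101.9 to 154 CPM in barcodes without Cd79a and Cd79b, and the basophil and mast sums 12.2 to 75.7 and 42.8 to 118 CPM. No tested endothelial, megakaryocyte, mesenchymal or conventional dendritic marker was called. The part of these cells in the stage differences was not tested. Leaving all marker genes of other cells out of the counts gave 3498 called stage genes in place of 3513, and leaving out barcodes with an excess of them gave 3402.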

How the data were processed

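Droplet single-cell RNA sequencing of liver cells was deposited as 12 matrices of raw UMI counts per gene and barcode, which the authors made with 10x Genomics software (versions 3.0.2 and 3.1.0 per the file headers). The submitters' processing notes name Cell Ranger 2.1.1, R 4.1.2, Seurat and the mm10 build. The members and gene lists were chosen with earlier results of these data known.

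Counts were taken from 9 of the 12 matrices, without merging. The second Jag1Ndr/+ replicate of each stage and the second Jag1Ndr/Ndr replicate at P3 were left out, as their barcodes recurred in other matrices. The barcodes of library A were removed from the first P3 Jag1Ndr/Ndr matrix. Barcodes under 1000 UMIs, or with over 15% of UMIs from mitochondrial genes, were left out before the gate. Counts of member cells were summed per library and tested with edgeR 4.0.16 (TMM scaling, filterByExpr, quasi-likelihood F test, Benjamini-Hochberg adjustment, R 4.3.3), stage with 5 and 4 libraries and genotype with 2 and 3. The interaction fit had both B-cell sets and the library as a block. DESeq2 1.42.0 was an alternative. Shares that the rule did not set were compared by exact permutation over libraries (Python 3.11.15, numpy 2.4.6, scipy 1.17.1). Background shares and sums of marker genes come from 3000 barcodes per library drawn from those without Cd79a and Cd79b. Background levels of single genes, and the folds against them, come from all such barcodes. Those levels are plain CPM, whereas the stage levels of later B cells printed beside them are TMM-scaled. The 2-fold comparison of later B cells with these barcodes used plain CPM on both sides. The tests were checked on simulated data.

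Genes were named if they were list members or among the 10 largest called changes in each direction (5 for the interaction). The latter needed at least 20 CPM in the higher stage, no overlap of the stages, and at least 2 times the level in barcodes without Cd79a and Cd79b in every library of the higher stage. Xist, Y-linked and predicted genes were not named. Within E16.5, deviations from the group means correlated at 0.119 to 0.232 over the 3 pairs of libraries of the same replicate number. With groups of 2 and 3 libraries these deviations are tied to one another, so the correlations cannot establish a pairing. An alternative fit treated the numbers as pairs. Alternatives covered normalization, the low-count filter, stricter gates, sex, other cells' transcripts and single libraries left out. Intervals cover counting error only. Gene coordinates are those of the GENCODE annotation of GRCm38.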

Additional observations from a re-analysis of the deposited data

Results flagged for a closer look

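In 8 of 204 groups of libraries a single value stood apart from the rest of its group by Dixon's test, where chance gives about 5%. Among E16.5 later B cells these were Ifi27l2a at 141 CPM in Jag1Ndr/Ndr replicate 1, Igf2bp1 at 25.3 CPM and Vpreb2 at 41.6 CPM in Jag1Ndr/Ndr replicate 2, and Iglc2 at 42.8 CPM in Jag1Ndr/+ replicate 1. Among P3 later B cells they were Ighm at 2124 CPM in library A (low), Ltb at 559 CPM in library B, Spi1 at 138 CPM in library D (low) and the share of cells with Dntt, 0.0390% in library D against 0% in the others.

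The stage difference (P3 over E16.5, log2) in later B cells differed from that in B cells with surrogate light chain by the interaction term of edgeR's quasi-likelihood fit for the named genes below. Of these, 10 were named because they had the largest called differences, so their number is no result, and 14.5% of all genes were called. It was larger in later B cells for Il4i1 (2.49), H2-Oa (2.39), Bank1 (2.21), Nfkbid (1.91), Ltb (1.47), Cd69 (1.39), Bcl2 (1.38) and Rag1 (0.94). It was smaller for Iglc1 (-3.55), Iglc2 (-2.43), Cd2 (-2.35), Rbm24 (-2.04), Blk (-2.02), Ly6d (-1.57), Hells (-0.98), Igkc (-0.88) and Mcm3 (-0.82).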

How the results depend on the processing

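Between P3 and E16.5, 2789 to 3729 genes were called over the alternatives run, the fewest with sex as a term (Ddx3y below 1 CPM). Of 92 named genes, 81 kept their direction and their side of the threshold in every alternative, 8 lost the call in some (Ighm, Ighd, Ciita, Il7r, Lin28b, Arid3a, S100a8 and Isg15), 3 gained it in some (Vpreb3, Notch2 and Mki67) and 0 reversed. For Jag1Ndr/Ndr against the others, the count of 0 became 16 with no filter on low counts, 1 without barcodes with an excess of other cells' transcripts, and 0 to 3 with single libraries left out. The interaction count of 1727 became 1072 without those barcodes and 1060 to 1634 with single libraries left out. The stage difference in the share of cells with Rag1 or Rag2 ran from -6.42 to -3.48 points with single libraries left out and was -31.7 points (exact permutation p = 0.0159) without equal depth. That of Ighm was 3.21 points (p = 0.190) and that of Ighd 4.12 points (p = 0.175) at full depth, exact permutation tests both. The causes were not tested. The alternatives without barcodes that held excess or marker transcripts of other cells, with Ddx3y as a term, without equal depth and with shares compared within a replicate number were chosen after seeing the data.

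With replicate number as a block, 3429 stage genes, 0 genotype genes and 1733 interaction genes were called. Across the stages, deviations correlated at -0.149 to 0.117 over 11 pairs of libraries of the same number and at -0.125 to 0.178 over 9 pairs of different numbers. Deviations from a stage's mean are tied to one another here too, so these correlations cannot settle whether libraries of the same number share more than the number. Dropping every barcode with 5 other-cell UMIs left almost no E16.5 cells and gave no value, and Xist is not in the P3 gene list, so it could not be a term there. At E16.5 the small number of later B cells limits precision. On simulated data 68% of 2-fold and 93% of 4-fold stage changes were recovered.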

Other observations

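Variable gene transcripts of the immunoglobulin loci were few in later B cells and are given as counts only. Ighv1-23 had 43 UMIs over the E16.5 libraries, at most 16 in one of them, and 2 over the P3 libraries, while P3 held far more later B cells. Other variable genes had more UMIs at P3, over many more cells. Iglv1 had 17 UMIs at E16.5 and 271 at P3, Iglv3 had 5 and 122, and Igkv19-93 had 26 and 264, of which library B held 161. The cell counts of the single kappa variable genes were added up, so that a cell with 2 of them counts 2 times. The sums were 36, 7, 13, 53 and 12 at E16.5, beside 176, 63, 153, 250 and 73 later B cells. In libraries A to D they were 417, 1170, 236 and 362, beside 3822, 3490, 1530 and 2563 later B cells.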
